A study of Saccharomyces cerevisiae with 18 samples.

Results

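The genes described here encode the subunits of the 26S proteasome of Saccharomyces cerevisiae. They were chosen by symbol: a probe set was taken where its gene is named RPN, RPT or PRE followed by a number, PUP1, PUP2, PUP3 or SCL1. The rule found 34 genes with 1 probe set each, of 5449 genes and 5498 S. cerevisiae probe sets tested. By textbook role 14 of them encode the core particle (7 of the alpha ring and 7 of the beta ring) and 18 the regulatory particle (10 of the base and 8 of the lid). The remaining 2 matched the symbol rule without being subunits: RPN4 encodes the transcription factor of the proteasome genes and RPN14 a chaperone of base assembly. Their transcripts were measured in 18 batch cultures on Affymetrix Yeast Genome 2.0 arrays, in 6 groups of 3 biological replicates. All strains shared the host CEN. PK 530-1C, whose own triose phosphate isomerase gene TPI1 was at background on every array, and all carried a 2 μm plasmid with POT1, the fission yeast isomerase gene, as its marker. Strain NC had only the TPI1 promoter on that plasmid and made no amylase. In AAC the TPI1 promoter drove amylase behind the alpha factor leader, and this strain was labelled a high producer. In AAP the TEF1 promoter drove the same leader and amylase, and this strain was labelled as producing less. Each strain was grown aerobically and anaerobically in SD-SCAA medium at 30 °C and harvested near an optical density of 1, in what the labels call the early glucose phase.

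The proteasome degrades proteins that carry ubiquitin chains, including misfolded secretory proteins that are returned from the endoplasmic reticulum to the cytosol. Its core is a barrel of stacked rings, with the peptidase sites inside the beta rings and a gate formed by the alpha rings. The regulatory particle caps the barrel: the base holds a ring of ATPases (RPT genes) that unfold and thread the substrate, and the lid removes the ubiquitin chain. In budding yeast the transcription factor Rpn4 binds a shared element upstream of most proteasome genes and is itself degraded by the proteasome, so that the genes are controlled as a group.

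The deposited values were read as log2 signals, since neither the base of the logarithm nor the normalization is stated, and each fold below rests on that reading. Array values of the 34 genes ran from 6.30 (RPN14) to 10.54 (RPT1), all above the background of 5.55 to 5.60 set by fission yeast probe sets. Fission yeast shares this array, and 20 of its 22 proteasome probe sets read at most 5.30, while its rpt1 read 7.17 to 7.30 and its rpt6 5.58 to 5.75 on all arrays. The array labelled AAP aerobic replicate 3 stood apart: its POT1 (fission yeast tpi1) signal was 9.24, against 12.42 and 12.38 on the other AAP aerobic arrays, and of all arrays it was nearest to AAC aerobic replicate 3. HES1 read 9.24 on it, against 5.55 and 5.54 on the other AAP aerobic arrays and 9.19 to 9.27 in aerobic AAC, and DET1 read 11.28, against 7.80 and 7.61 and against 11.19 to 11.40. These values go against its label, and every AAP aerobic mean, spread and contrast includes it unless said otherwise. It also enters the tests of all other contrasts through the pooled variance. NC anaerobic replicate 1 had, of all 18 arrays, the lowest best correlation with any other array (r = 0.992 across genes). The oxygen labels were borne out on every array by DAN1, an anaerobic cell wall gene, which read 5.07 to 5.19 aerobically and 11.29 to 11.66 anaerobically. Results that rest on the array labelled AAP aerobic replicate 3 or on NC anaerobic replicate 1 are given with and without it. In total RNA, fewer transcripts per cell and fewer transcribing cells cannot be told apart, and precision is limited by there being 3 arrays a group.

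Most core particle transcripts were higher in anaerobic than in aerobic culture, by a small step, in the mean of the 3 strains. Of the 14 core genes 12 rose and none fell, with a median log2 difference of 0.22, against 0.0045 over all probe sets tested. Over all 34 genes 23 rose and 1 fell (limma, Benjamini-Hochberg adjusted p under 0.05), and 31.2% of all probe sets tested rose and 30.4% fell in the same comparison. The share of members that rose was thus above that of all probe sets, and the share that fell far below it. The core genes that did not pass were PRE5 of the alpha ring, at 0.10 ± 0.0451 (SE), and PUP3 of the beta ring, at 0.02 ± 0.0352 (SE). PRE5 passed with the replicate number as a block, and with quantile normalization all 14 core genes passed as higher, PUP3 among them. Quantile normalization moved the median over all 34 genes from 0.14 to 0.19. No share of all probe sets is given for either setting. The median over the core genes was highest in AAC, at 0.28, followed by NC at 0.24 and AAP at 0.12. Without NC anaerobic replicate 1 it was 0.16 in NC, and without AAP aerobic replicate 3 it was 0.13 in AAP. With a trend of signal on coding length removed from each array, it was 0.20 in AAC, 0.20 in NC and 0.12 in AAP.

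Among alpha ring genes PRE6, which encodes the alpha 4 subunit, moved most. Its log2 signal in NC was 9.77, 9.81 and 9.79 on the aerobic arrays and 10.32, 10.02 and 10.05 on the anaerobic ones. In AAC it was 9.81, 9.75 and 9.73 with oxygen and 10.15, 10.11 and 9.98 without. In AAP it was 9.84, 9.84 and 9.88 with oxygen and 10.20, 10.13 and 10.23 without. Every anaerobic array was above every aerobic array in all 3 strains, and NC anaerobic replicate 1 was the highest of all. The mean difference was 0.33 ± 0.0376 (SE), 1.26-fold, with an adjusted p of 1.55e-06 by limma. PRE9, the only alpha ring gene that yeast can lose and live, rose by 0.22 ± 0.0308 (SE) and SCL1, which encodes alpha 1, by 0.22 ± 0.0418 (SE). PRE10, PRE8 and PUP2 also rose, by 0.14 to 0.21.

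**Figure D1:**
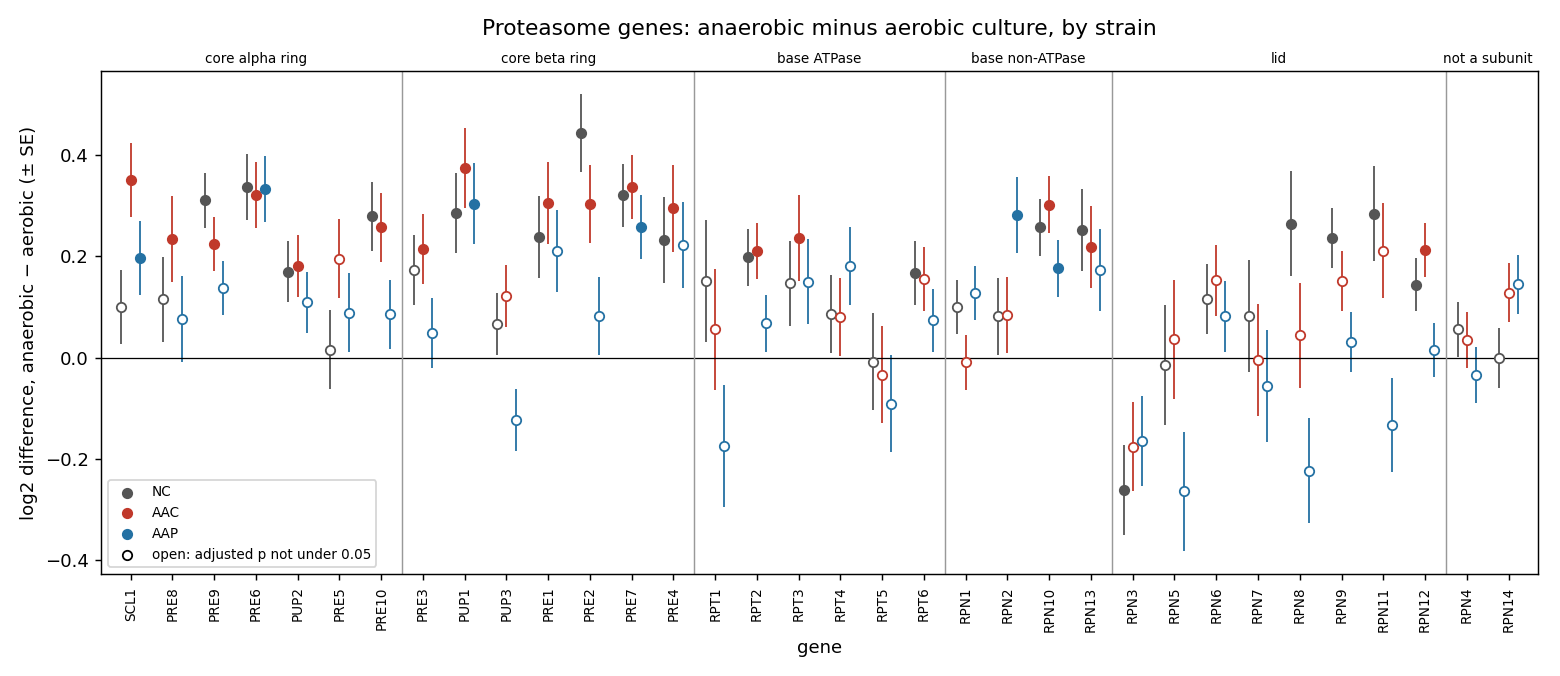
Difference in log2 signal between anaerobic and aerobic cultures (vertical axis, anaerobic minus aerobic, with its standard error) for each of the 34 genes, arranged by role, in NC (grey), AAC (red) and AAP (blue); filled points have an adjusted p under 0.05. The core genes lie mostly between 0 and 0.4 in all strains, while the lid holds the points furthest below 0, RPN3 in NC at -0.26 and RPN5 and RPN8 in AAP at -0.26 and -0.22.

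The beta ring carries the peptidase sites, encoded by PRE3, PUP1 and PRE2. PUP1, of the trypsin-like site, rose by 0.32 ± 0.0458 (SE) in the mean of the strains, with 8.85, 8.98 and 8.92 aerobically and 9.35, 9.13 and 9.13 anaerobically in NC, and the anaerobic arrays lay above the aerobic ones within each strain. PRE2, of the chymotrypsin-like site, rose by 0.28 ± 0.0446 (SE). Its aerobic values in NC were 9.75, 9.72 and 9.80 and its anaerobic values 10.08, 10.28 and 10.23, so that the 2 groups did not overlap, and the difference in this strain was the largest of all members at 0.44 ± 0.0772 (SE). In AAP the PRE2 values were 9.84, 9.78 and 10.03 with oxygen and 9.96, 9.91 and 10.03 without. Those groups overlapped, the highest aerobic value being that of replicate 3. PRE3, of the caspase-like site, rose by 0.14 ± 0.0399 (SE). The non-catalytic beta genes PRE7, PRE1 and PRE4 rose by 0.30 ± 0.036 (SE), 0.25 ± 0.0467 (SE) and 0.25 ± 0.0493 (SE).

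The base moved less than the core in the mean of the strains. There 7 of its 10 genes rose and none fell, with a median of 0.14. By strain the base median was 0.15 in NC and 0.12 in AAC, below the core medians. In AAP it was 0.14, against 0.12 for the core. With the coding length trend removed, the medians were 0.17 for the base and 0.19 for the core in the mean of the strains. In that setting they were 0.21 and 0.20 in NC, 0.15 and 0.20 in AAC and 0.14 and 0.12 in AAP. Of the 6 ATPase genes RPT3, RPT2, RPT4 and RPT6 rose by 0.12 to 0.18, while RPT5 was at -0.04 ± 0.0551 (SE) and RPT1 at 0.01 ± 0.0693 (SE). Without AAP aerobic replicate 3, RPT1 was at 0.08 with an adjusted p of 0.0161 by limma. RPN10, which encodes a ubiquitin receptor, rose most, by 0.24 ± 0.0325 (SE) (adjusted p = 8.44e-06 by limma). Its NC values were 8.73, 8.78 and 8.74 aerobically and 9.04, 9.02 and 8.97 anaerobically, and in each strain the anaerobic arrays were all above the aerobic ones. RPN13, which also encodes a ubiquitin receptor, rose by 0.21 ± 0.0466 (SE), and the scaffold gene RPN2 by 0.15 ± 0.0436 (SE). RPN1 was at 0.07 and was not called.

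The lid was split. RPN6, RPN9 and RPN12 rose, by 0.12, 0.14 and 0.12, and RPN3 fell by 0.20 ± 0.0512 (SE), the only fall among the 34 genes (adjusted p = 0.00304 by limma). RPN3 encodes a structural lid subunit. Its values were 8.70, 8.84 and 8.78 aerobically and 8.47, 8.51 and 8.55 anaerobically in NC, and 8.66, 8.82 and 8.71 and 8.53, 8.55 and 8.58 in AAC. In those strains each anaerobic array was below each aerobic one. In AAP the values were 8.84, 8.66 and 8.45 with oxygen and 8.59, 8.57 and 8.29 without, and the groups overlapped, aerobic replicate 3 being low. The lid median was 0.07 in the mean of the strains.

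The 18 genes of the regulatory particle together had a median oxygen difference of 0.12, with 10 higher and 1 lower. The difference of the medians, core minus regulatory, was 0.10 in the mean of the strains, 0.09 in NC, 0.16 in AAC and 0.07 in AAP, and no test was made of this difference between lists. Core genes are shorter, with a median coding length of 764.5 bases against 1297.5. After a trend of signal on coding length was removed from each array, the difference was 0.0646 in the mean of the strains, 0.0091 in NC, 0.0638 in AAC and 0.088 in AAP, lower than before in all but AAP. Per array, the median deviation of the core genes from each gene's mean over the 18 arrays was -0.12, -0.10 and -0.11 in aerobic NC and 0.21, 0.06 and 0.09 in anaerobic NC. For AAC these values were -0.09, -0.12 and -0.20 with oxygen and 0.18, 0.21 and 0.01 without, and for AAP -0.01, -0.08 and -0.13 and 0.04, 0.0087 and 0.18. Aerobic and anaerobic arrays did not overlap for the core genes in any strain, and AAC anaerobic replicate 3 was the lowest of its group. For the lid the values in AAP were 0.11, -0.08 and -0.13 aerobically and -0.03, -0.09 and -0.13 anaerobically, and these overlapped.

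**Figure D2:**
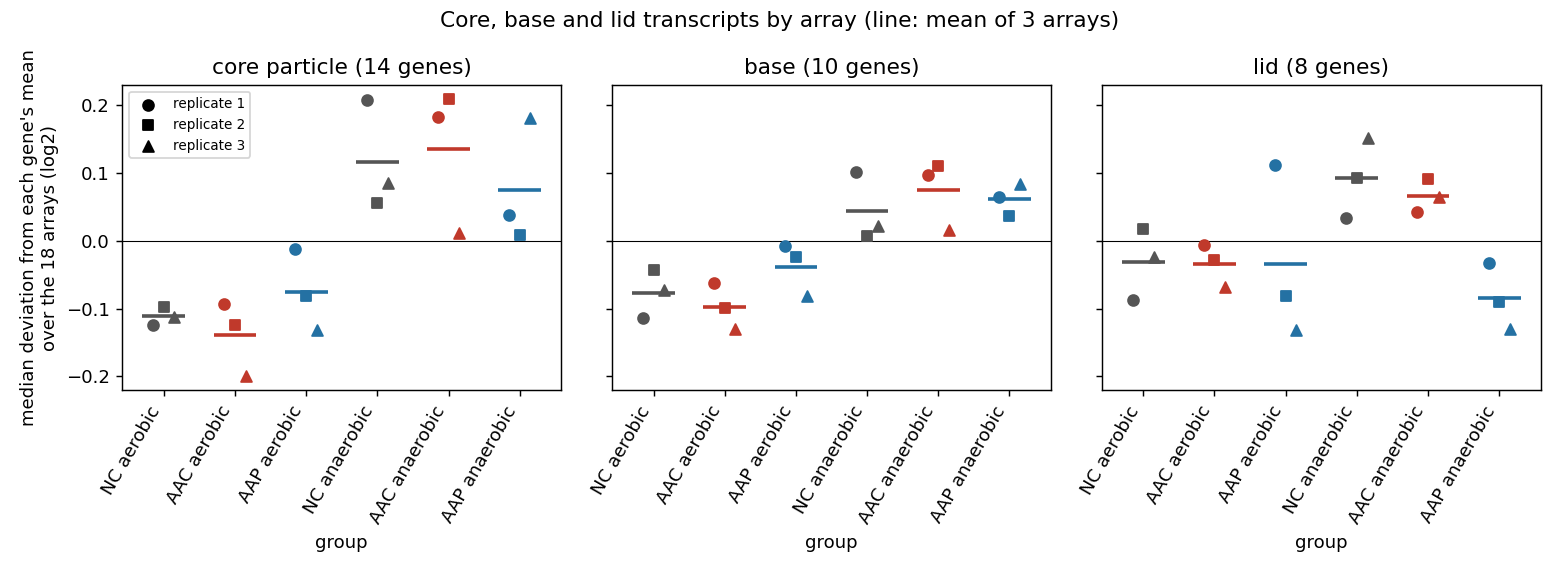
Median deviation (log2, vertical axis) of the core, base and lid genes from each gene's own mean over the 18 arrays, for each array of the 6 groups; symbols mark the replicate number and lines the mean of 3 arrays. Core medians are below 0 on all 9 aerobic arrays and above 0 on all 9 anaerobic ones, while lid medians in anaerobic AAP lie at -0.03, -0.09 and -0.13.

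Within strains, NC had 17 members higher and 1 lower without oxygen (22.2% of all probe sets tested were higher and 28.0% lower). The lower gene was RPN3, at -0.26 ± 0.0886 (SE), a call that was lost without NC anaerobic replicate 1, where it stood at -0.24 (adjusted p = 0.0584 by limma) and 12 members were higher and none lower. It was also lost without NC anaerobic replicate 2 or NC aerobic replicate 2 or 3, at -0.23 to -0.26, and with quantile normalization or removal of the coding length trend, at -0.16 in both. Without NC aerobic replicate 1 the count was 11, and without NC aerobic replicate 3 it was also 11. AAC had 17 higher and none lower (21.7% and 22.8%), of which 12 were core genes, and 11 were higher without AAC anaerobic replicate 2. AAP aerobic replicate 3 enters the NC and AAC tests through the pooled variance. With it left out, NC had 19 higher and 1 lower, and AAC had 20 higher and none lower. AAP had 6 higher and none lower (21.2% and 17.2%): PRE6, PRE7, PUP1 and SCL1 of the core and RPN2 and RPN10 of the base. The share of members that were higher in AAP was not above that of all probe sets, while the share lower was below it. Quantile normalization gave 14 higher in AAP, and removal of the coding length trend 12, with none lower in either. Without the array labelled AAP aerobic replicate 3, AAP had 5 higher and 5 lower, and the falls were in RPN5, RPN3, RPN7, RPT5 and PUP3. Without AAP aerobic replicate 1 it had 10 higher, and without NC anaerobic replicate 1 it had 11 higher and 1 lower. Shares of all probe sets in brackets were taken with all arrays and the main settings, and none is given for the alternatives.

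Whether the oxygen response of a member differed between strains was tested by interaction terms. Between AAC and NC none of the 34 differed, with 1 at an unadjusted p under 0.05 (1.67% of all probe sets tested were higher and 1.20% lower). Between AAC and AAP none differed either, with 3 at an unadjusted p under 0.05 (1.40% and 2.15%). Without AAP aerobic replicate 3, PUP3 passed at 0.31. Without NC anaerobic replicate 1, RPN11 passed at 0.34. Between AAP and NC the oxygen difference of 2 members was lower in AAP, a share near that of all probe sets (8.02% higher and 4.47% lower). RPN8, which encodes the lid partner of the deubiquitinase Rpn11, differed by -0.49 ± 0.146 (SE) (adjusted p = 0.042 by limma), and PRE2 by -0.36 ± 0.109 (SE) (adjusted p = 0.0434 by limma). RPN8 read 9.40, 9.49 and 9.44 aerobically and 9.42, 9.76 and 9.94 anaerobically in NC, where replicate 1 stayed within the aerobic range, and 9.53, 9.35 and 9.56 and 9.23, 9.19 and 9.35 in AAP. Its oxygen difference was 0.26 in NC and -0.22 in AAP, which did not pass, and that of PRE2 was 0.44 and 0.08. Neither call was kept without AAP aerobic replicate 3: RPN8 was then at -0.45 with an adjusted p of 0.079 and PRE2 at -0.29 with 0.0857, both by limma, while RPN7 and RPN9 of the lid passed at -0.32 and -0.28. RPN8 and PRE2 passed without NC anaerobic replicate 1, at -0.63 and -0.42, but of the 18 arrays 13 ended the call of RPN8 when left out and 11 that of PRE2, with differences of -0.37 to -0.51 and -0.29 to -0.38.

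**Figure D3:**
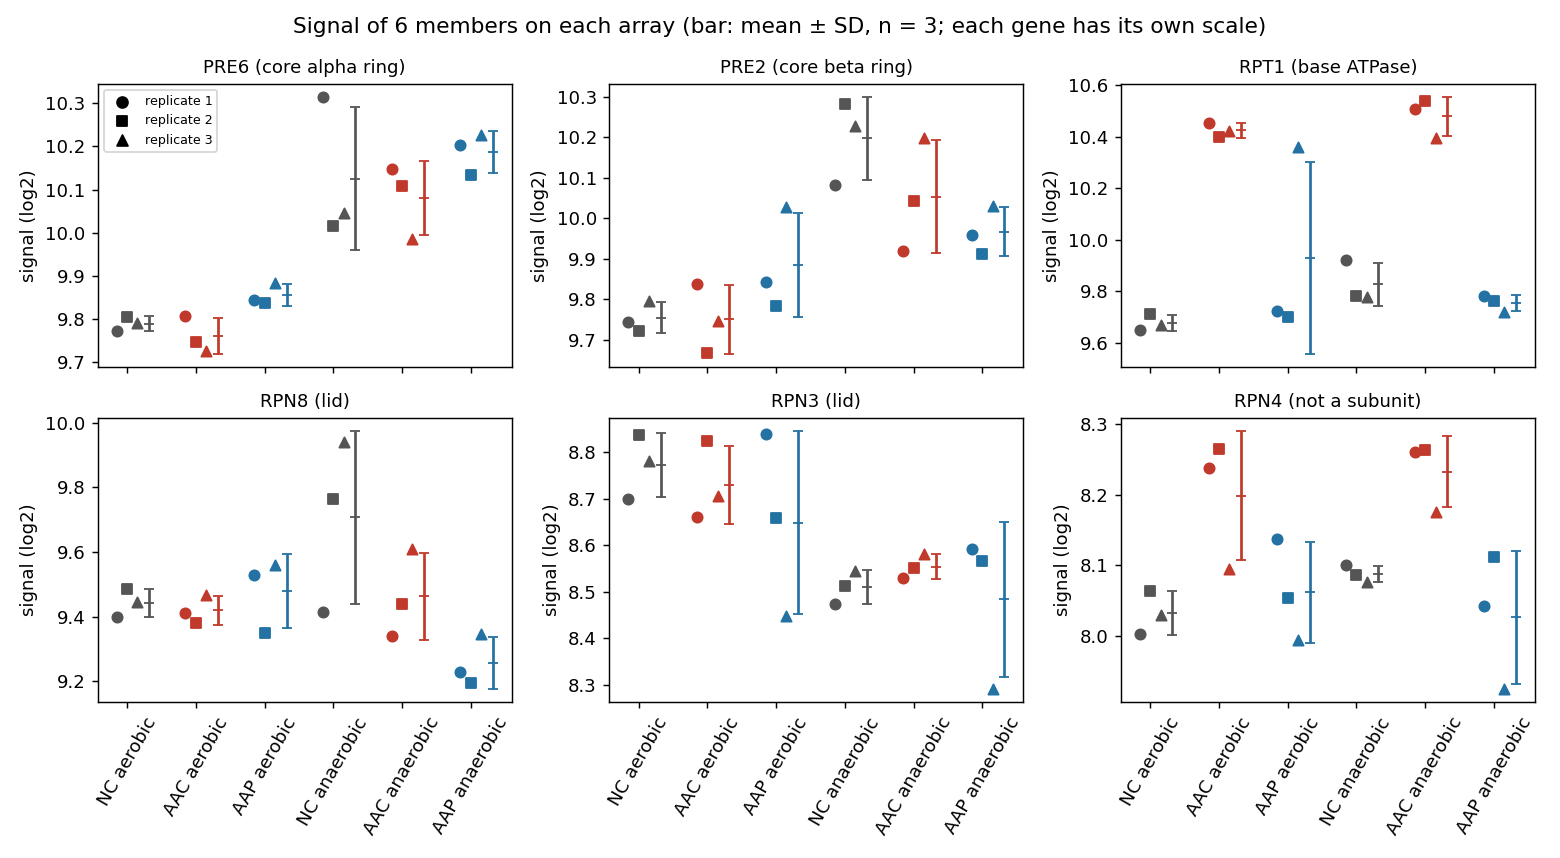
Log2 signal (vertical axes, a separate scale for each gene) of PRE6, PRE2, RPT1, RPN8, RPN3 and RPN4 on the 18 arrays by group, with the mean and SD of the 3 replicates as a bar. PRE6 is higher on all anaerobic arrays, and RPT1 is above 10.3 on the 6 AAC arrays and on AAP aerobic replicate 3 alone. RPN8 has its lowest group mean in anaerobic AAP.

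Between strains in aerobic culture, RPT1 was the member that changed most. It encodes an ATPase of the base. Its values were 9.65, 9.71 and 9.67 in NC and 10.45, 10.40 and 10.42 in AAC, and the groups were far apart relative to their spread. The difference, AAC minus NC, was 0.75 ± 0.12 (SE), 1.68-fold, with an adjusted p of 0.0016 by limma. In AAP the values were 9.72, 9.70 and 10.36, so that replicate 3 alone read as the AAC arrays did. RPN4 was the only other member called, at 0.17 ± 0.0551 (SE) (adjusted p = 0.0464 by limma). No member was lower, and 9.42% of all probe sets tested were higher and 9.99% lower. The share of members called was below both. The median over the 34 genes was -0.02. Between AAP and NC in aerobic culture none of the 34 was called by limma, with 1 at an unadjusted p under 0.05 (0.146% of all probe sets tested were higher and 0.0546% lower). Between AAC and AAP in aerobic culture only RPT1 was higher, at 0.50 ± 0.12 (SE) (adjusted p = 0.0389; 2.38% of all probe sets were higher and 1.58% lower). Without AAP aerobic replicate 3 the RPT1 difference was 0.71 with an adjusted p of 1.55e-07 by limma, and PRE5, RPN13 and RPN7 were lower in AAC by 0.21, 0.25 and 0.25. Leaving out any other aerobic array ended the call of RPT1 against AAP, with differences of 0.38 to 0.51, as did leaving out 5 of the anaerobic arrays, which enter through the pooled variance.

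RPT1 is the only member on chromosome XI, and its neighbours there were higher in AAC as well. Counting outwards from RPT1 in gene order until 2 measured genes in a row were not called higher in aerobic AAC than in NC gave a run of 29 genes above background, 5 before RPT1 and 23 after it, from GPM1 to VPH2. This run was chosen from the aerobic values, so its aerobic counts are a description: 27 of the 29 were higher in AAC, with a median difference of 0.75 (1.68-fold), beside a median of -0.02 over the other 243 measured genes of the chromosome. The anaerobic levels formed no part of that difference, although those arrays enter the calls through the pooled variance. In anaerobic culture 24 of the 29 were higher in AAC than in NC, with a median of 0.62, and all 29 were higher in AAC than in AAP, with a median of 0.66 (1.58-fold). Of the other 243 measured genes 15 were higher and 19 lower in AAC than in NC, with a median of -0.0056. In AAC against AAP 26 of those 243 were higher and 52 lower, with a median of -0.04. Against each gene's mean in NC of the same oxygen condition, the median over the run was 0.76, 0.75 and 0.75 on the AAC aerobic arrays and 0.68, 0.67 and 0.61 on the AAC anaerobic ones. It was -0.00096, -0.0027 and 0.73 on the AAP aerobic arrays and -0.03, -0.04 and -0.05 on the AAP anaerobic ones. The array labelled AAP aerobic replicate 3 was therefore alone among the AAP arrays in carrying the raised run. What the genes of the run share beside their position was not tested.

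**Figure D4:**
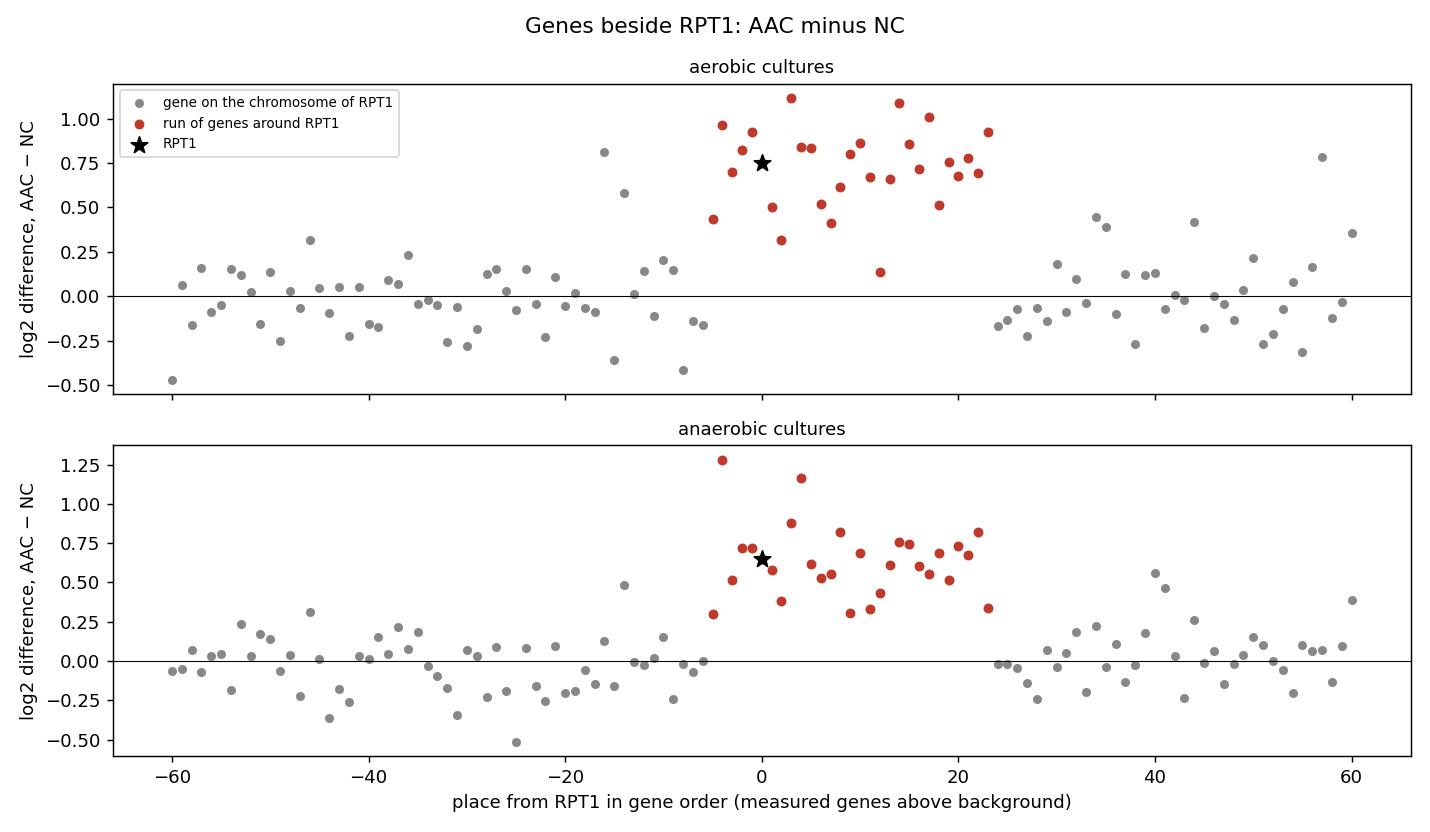
Difference in log2 signal, AAC minus NC (vertical axes), for measured genes of chromosome XI within 60 places of RPT1 in gene order (horizontal axis), in aerobic (top) and anaerobic (bottom) cultures; red points are the 29 genes of the run and the star is RPT1. The edges of the run, 5 genes before RPT1 and 23 after it, were set from the aerobic calls. The median over the run was 0.75 in aerobic and 0.62 in anaerobic culture. Its last gene, VPH2, was at 0.34 in anaerobic culture and was not called there.

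In anaerobic culture RPT1 was the only member called between AAC and NC. It read 9.92, 9.78 and 9.78 in NC and 10.51, 10.54 and 10.39 in AAC, without overlap, a difference of 0.65 ± 0.12 (SE) (adjusted p = 0.00248 by limma), while 6.71% of all probe sets tested were higher and 5.29% lower. Without NC anaerobic replicate 1, SCL1 and RPN14 were also higher and RPN8 and RPN11 lower. Without AAC anaerobic replicate 3 there were 3 higher, and without AAP aerobic replicate 3 RPN7 was also lower. The median over the members was 0.0056.

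In anaerobic culture 3 of the 8 lid genes were lower in AAP than in NC. These were RPN8, RPN5 and RPN11, and PRE2 and PUP3 of the beta ring were also lower, while RPN1, a scaffold of the base, was higher in AAP (12.9% of all probe sets tested were higher and 8.06% lower). RPN8 was lower by 0.45 ± 0.103 (SE), with an adjusted p of 0.00887 by limma, and all 3 AAP arrays were below all 3 NC arrays. RPN11, which encodes the deubiquitinase, read 8.60, 9.01 and 9.03 in NC and 8.51, 8.52 and 8.53 in AAP. AAP lay below NC on every array, although NC replicate 1 was nearer to AAP than to the other NC arrays, and the difference was -0.36 ± 0.0932 (SE) (adjusted p = 0.0153 by limma). RPN5, a structural lid gene, read 9.15, 9.19 and 9.37 in NC and 8.98, 8.92 and 8.61 in AAP, a difference of -0.40 ± 0.118 (SE). PRE2 differed by -0.23 ± 0.0772 (SE), PUP3 by -0.22 ± 0.061 (SE) and RPN1 by 0.17 ± 0.0533 (SE). The call of RPN1 was lost with median centring, quantile normalization, trend and robust variance, only these groups in the fit or the coding length trend removed, at 0.07 to 0.17, and without AAP anaerobic replicate 1 or 2 or NC anaerobic replicate 2 or 3, at 0.12 to 0.18. The median was -0.18 over the 8 lid genes, -0.05 over the base and -0.02 over the core, beside 0.02 over all probe sets. SEM1, a small lid subunit whose name the rule does not catch, was at -0.41 ± 0.181 (SE) and was not called. Its NC values were 9.31, 9.99 and 10.15, and those in AAP were 9.42, 9.46 and 9.33.

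The count of 6 called members moved with the arrays. No share of all probe sets is given with an array left out, so these counts describe the members alone. It was 12 without NC anaerobic replicate 1, 11 without AAP aerobic replicate 3, 1 without NC anaerobic replicate 2 and 1 without NC anaerobic replicate 3. It was 2 without AAP anaerobic replicate 1 and 3 without AAP anaerobic replicate 2. RPN8 passed with each of these arrays left out. RPN2 was called as higher in AAP with the replicate number as a block, at 0.22 ± 0.0755 (SE).

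**Figure D5:**
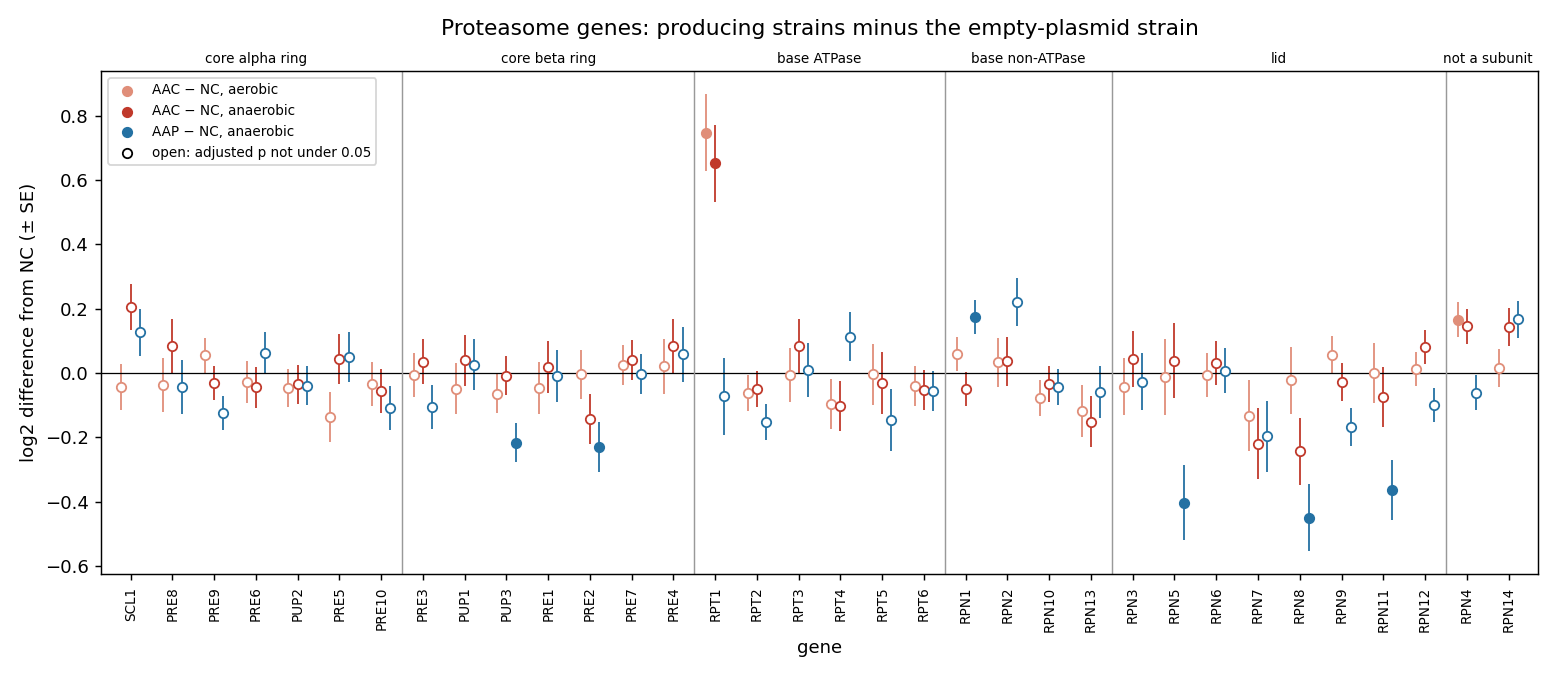
Difference in log2 signal from NC (vertical axis, with its standard error) of the 34 genes by role, for AAC in aerobic and in anaerobic culture and for AAP in anaerobic culture; filled points have an adjusted p under 0.05. RPT1 stands apart in both AAC comparisons at 0.75 and 0.65, and RPN8, RPN5 and RPN11 are lowest in AAP at -0.45, -0.40 and -0.36.

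Compared directly in anaerobic culture, AAC exceeded AAP in 6 members and was lower in 2 (13.3% of all probe sets tested were higher and 19.7% lower). RPT1 was higher by 0.73 ± 0.12 (SE) (adjusted p = 0.000601 by limma). The lid genes RPN5, RPN11 and RPN12 were higher by 0.44 ± 0.118 (SE), 0.29 ± 0.0932 (SE) and 0.18 ± 0.0531 (SE), and PUP3 by 0.21 ± 0.061 (SE). RPN1 was lower by 0.22 ± 0.0533 (SE) and RPT4, a base ATPase gene, by 0.22 ± 0.077 (SE). Without AAC anaerobic replicate 2, and without either of AAP anaerobic replicates 1 and 2, the count was 4. These comparisons share arrays, so that a low value in anaerobic AAP enters both of them.

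RPN4 read 8.00, 8.06 and 8.03 in aerobic NC, 8.24, 8.26 and 8.09 in aerobic AAC and 8.14, 8.05 and 7.99 in aerobic AAP. In anaerobic cultures it read 8.10, 8.09 and 8.08 in NC, 8.26, 8.26 and 8.17 in AAC and 8.04, 8.11 and 7.93 in AAP. All AAC arrays were above all NC arrays in each condition, and oxygen moved it little, at 0.02 ± 0.0318 (SE) in the mean of the strains (adjusted p = 0.645 by limma). With the trend on coding length removed that difference was 0.09 and passed. AAC exceeded AAP by 0.21 ± 0.0551 (SE) in anaerobic culture (adjusted p = 0.0108 by limma), where the arrays did not overlap, while against NC in that condition it was at 0.14 ± 0.0551 (SE) and did not pass (adjusted p = 0.103). The aerobic call against NC was lost when any 1 of 11 arrays was left out, among them each aerobic NC array and AAC aerobic replicates 1 and 2, with differences of 0.13 to 0.18. RPN14 had the lowest signal of the set and rose without oxygen by 0.09 ± 0.0339 (SE) in the mean of the strains. It was at -0.0013 ± 0.0588 (SE) in NC, 0.13 ± 0.0588 (SE) in AAC and 0.14 ± 0.0588 (SE) in AAP, and none of these passed in a strain alone.

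Genes that act with the proteasome were followed on 4 further lists. Of 9 assembly factors 4 rose and 3 fell without oxygen in the mean of the strains, beside 31.2% and 30.4% of all probe sets. The core chaperone genes POC4 and ADD66 rose by 0.37 ± 0.039 (SE) and 0.39 ± 0.0493 (SE), and the base chaperone genes TMA17 and HSM3 fell by 0.76 and 0.26. TMA17 read 7.09, 6.99 and 6.99 aerobically and 6.53, 6.31 and 6.56 anaerobically in NC, and 7.17, 7.14 and 7.58 and 6.26, 6.20 and 6.29 in AAP, with no overlap in either strain. Of 8 associated proteins 3 rose, again near the share of all probe sets, and none fell. These were HUL5, a ubiquitin ligase, at 0.14 ± 0.0259 (SE), FUB1 at 0.13 ± 0.0259 (SE) and STS1 at 0.11 ± 0.0278 (SE). Of 20 genes of the ubiquitin system 8 rose and 2 fell (31.2% and 30.4% of all probe sets). The polyubiquitin gene UBI4 had the largest rise, at 0.52 ± 0.117 (SE). By strain UBI4 was at 1.14 in NC and at 0.47 in AAC, where it was not called. In AAP it read 8.71, 8.36 and 9.62 in aerobic culture and 8.85, 8.88 and 8.84 in anaerobic culture. The means were 8.90 and 8.86, the aerobic one including replicate 3 at 9.62. Aerobic replicates 1 and 2 were both below every anaerobic AAP array. In the mean of the strains UBC4, a ubiquitin-conjugating enzyme of misfolded proteins, was at 0.31 ± 0.0449 (SE) and DOA1 at 0.25 ± 0.0412 (SE). UFD1 was at 0.18 ± 0.0378 (SE) and UBC5, the near relative of UBC4, at -0.26 ± 0.0469 (SE). Of 4 regulators of RPN4 transcription HSF1, the heat shock factor, rose by 0.19 ± 0.0386 (SE), and YAP1 and PDR1 fell by 0.13 and 0.10.

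In AAC against NC with oxygen 7 of the 41 genes of these lists were higher and none lower, beside 9.42% and 9.99% of all probe sets. UBI4 read 8.52, 8.47 and 8.53 in NC and 9.44, 9.45 and 9.54 in AAC, a difference of 0.97 ± 0.202 (SE) with an adjusted p of 0.00534 by limma. TMA17 was higher by 0.54 ± 0.113 (SE), SPG5, a regulator of the proteasome in stationary phase, by 0.57 ± 0.113 (SE), UBC5 by 0.34 ± 0.0813 (SE), DOA4, a deubiquitinase, by 0.25 ± 0.0572 (SE), HSF1 by 0.21 ± 0.0668 (SE) and FUB1 by 0.18 ± 0.0449 (SE). In anaerobic culture TMA17 was higher in AAC than in NC, by 0.41 ± 0.113 (SE), and ECM29 and BLM10, which bind the assembled particle, were lower, at -0.44 ± 0.0751 (SE) and -0.29 ± 0.0733 (SE). In AAP against NC without oxygen UFD2 and UBR1 were higher, and UBI4, UBC5 and SPG5 were lower, at -0.79 ± 0.202 (SE), -0.29 ± 0.0813 (SE) and -0.51 ± 0.113 (SE). UBI4 read 9.64, 9.67 and 9.64 in anaerobic NC, 9.90, 10.12 and 9.81 in anaerobic AAC and 8.85, 8.88 and 8.84 in anaerobic AAP, and the AAP arrays were the lowest without overlap. In AAC against AAP without oxygen 7 genes of the lists were higher and 6 lower, shares near the 13.3% and 19.7% of all probe sets. They were led by UBI4 at 1.08 ± 0.202 (SE) and SPG5 at 0.72 ± 0.113 (SE). On AAP aerobic replicate 3, UBI4 read 9.62, within 0.1 of an AAC array, against 8.71 and 8.36 on the other AAP aerobic arrays, and no gene of these lists passed between AAP and NC or between AAC and AAP in aerobic culture with that array included. Without it AAC was higher than AAP in UBI4 by 0.94, in SPG5 by 0.53 and in TMA17 by 0.41 (adjusted p = 2.49e-06, 0.000296 and 0.00581 by limma).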

How the data were processed

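The authors deposited 1 table of probe set values for the 18 arrays, read here as log2 signals. Its values were summarised with PLIER in R 2.10.1, per the submitters' processing notes. No source used here names the base of the logarithm, the normalization or the genome build, and no coordinates are printed. RefSeq's gene table (assembly R64) served for names and gene order only. Of 10928 probe sets 7244 had 1 gene symbol, 1 had several and 3683 had none. After S. pombe probe sets were set aside, 5498 for 5449 genes were tested. Background was the 95th percentile of 1747 S. pombe probe sets on each array.

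From these values 1 linear model with 6 group means was fitted to all 5498 probe sets with limma 3.58.1 in R 4.3.3, with moderated tests (12 residual and 3.10 prior degrees of freedom), and 13 contrasts were tested, each adjusted by Benjamini-Hochberg over all probe sets. A call is an adjusted p under 0.05. Groups come from the labels, which call the 3 cultures of a group biological replicates. Strain or oxygen contrasts that use the same group share its arrays. The model was tested on simulated data.

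Members, roles, the lists of assembly factors, associated proteins, ubiquitin system genes and RPN4 regulators, and the tests were chosen with earlier results of these data known. All 34 members are accounted for, and within the 4 further lists up to 4 genes per contrast are named, those called with the smallest p. Genes named for an array that stands apart, the run beside RPT1, SEM1 and the oxygen difference of UBI4 were chosen after values were seen. Same-numbered replicates deviated together in every pair (correlations over 0.1) only between aerobic NC and AAC (r from 0.126 to 0.326) and aerobic AAC and AAP (r from 0.168 to 0.456), with correlations taken across genes.

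Alternatives were each array left out, the replicate number as a block, quantile normalization, median centring, a filter on dim probe sets, trend and robust variance, only the groups compared, a threshold of 0.01 and, added after seeing the data, removal of a trend on coding length (loess, span 0.5). Planned counts of promoter motifs were not run, and sequences were not analysed here.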

Additional observations from a re-analysis of the deposited data

Results flagged for a closer look

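Oxygen responses of 6 genes differed between strains by the test of the interaction itself (limma, Benjamini-Hochberg adjusted). Between AAP and NC the difference, AAP minus NC, was -0.36 for PRE2 and -0.49 for RPN8. It was -1.18 for UBI4, -0.71 for SPG5 and -0.37 for UBC5. Without the array labelled AAP aerobic replicate 3 these 3 genes kept their calls, at -0.82, -0.55 and -0.24 (adjusted p = 0.000973, 0.00886 and 0.0412), while PRE2 and RPN8 did not. Between AAC and NC the difference was -0.43 for ECM29, a call that was lost with median centring, at -0.42, and with the replicate block or trend and robust variance, where the difference stayed at -0.43. It was also lost with any 1 of 11 arrays left out, at -0.37 to -0.44.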

How the results depend on the processing

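Counts below are of the 34 members called by limma, and differences are core minus regulatory medians. No share of all probe sets is given in these settings, so the counts describe the members alone. With each array left out in turn the counts ranged from 11 to 20 for the oxygen effect in NC, 11 to 20 in AAC, 5 to 12 in AAP and 22 to 25 in the mean of the strains. They ranged from 1 to 2 for AAC against NC aerobically, 0 to 0 for AAP against NC, 0 to 4 for AAC against AAP, 1 to 5 for AAC against NC anaerobically, 1 to 12 for AAP against NC and 4 to 9 for AAC against AAP. The interactions ranged from 0 to 0 (AAC and NC), 0 to 3 (AAP and NC) and 0 to 1 (AAC and AAP). The core minus regulatory difference ranged from 0.0633 to 0.134 in NC, 0.113 to 0.234 in AAC, 0.044 to 0.109 in AAP and 0.0844 to 0.113 in the mean. For aerobic strain contrasts it ranged from -0.0395 to 0.0148 (AAC and NC), -0.0003 to 0.0306 (AAP and NC) and -0.0386 to -0.0031 (AAC and AAP). For anaerobic ones it ranged from 0.002 to 0.130, 0.0049 to 0.104 and -0.0623 to 0.0562 in the same order, and for the interactions from 0.0035 to 0.110, 0.0095 to 0.108 and -0.0384 to 0.0429. At an adjusted p under 0.01 the counts were 9 in NC, 11 in AAC, 1 for AAC against NC aerobically, 0 for AAC against AAP aerobically, 1 for AAP against NC anaerobically, 2 for AAC against AAP anaerobically and 0 for the AAP and NC interaction. With the coding length trend removed, the core minus regulatory difference was 0.0091 in NC and 0.0638 in AAC, -0.0845 for AAC against AAP anaerobically, 0.105 for the AAP and NC interaction and -0.0676 for the AAC and AAP interaction. In that setting 12 members were called in AAP, 0 for AAC against AAP aerobically, 2 for AAC against NC anaerobically and 1 for the AAP and NC interaction. Quantile normalization gave 14 in AAP and 1 for that interaction. The filter on dim probe sets gave 1 for AAC against NC aerobically. Trend and robust variance gave 1 for AAC against NC aerobically and 1 for the AAP and NC interaction. With only the groups compared in the fit the counts were 0 for AAC against AAP aerobically, 2 for AAC against NC anaerobically and 0 for the AAP and NC interaction. The cause was not tested where a count moved. The threshold of 0.01 can only lower a count by construction, while leaving out an array lowered some counts and raised others. The replicate block ended no call in the aerobic contrasts of AAC with NC and with AAP, where all same-numbered samples correlated over 0.1. The highest of those correlations, 0.456, involved AAP aerobic replicate 3. Anaerobic NC and AAC correlated at 0.645 and 0.459 for replicates 1 and 3, but at -0.0239 for replicate 2. Whether samples with the same number were grown or processed together is not known from the labels. In other contrasts the block gave 18 members in NC, 18 in AAC, 9 in AAP and 25 in the mean. It gave 7 for AAP against NC anaerobically, 9 for AAC against AAP anaerobically and 3 for the AAP and NC interaction. Of 4734 values of single genes under the alternatives 4387 kept their side of the threshold, 305 lost it, 42 gained it and 0 reversed.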
